A study of Mus musculus with 8 samples.

Results

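Complex I (NADH:ubiquinone oxidoreductase) is the entry point of electrons from NADH into the mitochondrial respiratory chain. Its nuclear subunits were followed here in mouse liver after deletion of Capzb, which encodes the beta subunit of the heterodimer that caps actin filaments. Members were all symbols that begin with Nduf, then a, b, c, s or v, then a digit, which leaves out the assembly factors named Ndufaf. The rule found 37 of the 24421 symbols in the count table. Of these, 36 had counts and all 36 passed the filter on low counts. Ndufs5 was listed at 0 in all 8 libraries. Ndufb1 was not among the symbols found, and the subunits encoded by mitochondrial DNA were not analysed here. Ndufab1, the acyl carrier protein, lies outside the rule and is given with the other lists.

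The study profiled livers of C57BL/6N mice aged 8 to 10 weeks by sequencing of poly(A) RNA. There were 4 WT and 4 CAPZ_KO libraries. CAPZ_KO mice carried Albumin-CreERT2 with Capzb-fl/fl and were injected with tamoxifen, begun at 4 to 6 weeks of age. The series concerns the part of F-actin in organ growth and in keeping cell fate. WT mice were Capzb-fl/fl mice with tamoxifen, or Albumin-CreERT2;Capzb-fl/fl mice without it, and the labels do not tell which library is which. All groups thus share the floxed alleles, and the Cre is driven by the albumin promoter, active in hepatocytes. Exposure to Cre activity and, for some controls, to tamoxifen cannot be told apart from the deletion. The labels name separate samples but not separate animals, so the spread behind each p-value is that between samples and may be technical.

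In complex I, core subunits carry out the chemistry, some of them encoded in the nucleus and the others in mitochondrial DNA. The nuclear core forms the matrix arm, where flavin and iron-sulphur clusters carry electrons from NADH to ubiquinone. The remaining nuclear subunits are accessory: they surround the matrix arm, the proximal membrane arm next to it, or the distal membrane arm. Protons are pumped across the membrane arm, in its proximal and distal parts. The hepatocyte, rich in mitochondria, uses this chain for ATP and for redox balance of gluconeogenesis and fatty acid oxidation.

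Promoter sequence was looked at first, because genes of the respiratory chain are known to carry sites for shared regulators, among them nuclear respiratory factor 1 (NRF1). RefSeq windows on GRCm38.p6, from 250 bases before to 50 bases after a start, were given for 32 of the 37 members. Ndufa2, Ndufa4l2, Ndufb9 and Ndufs1 were among those with none. The letters of the NRF1 motif (GCGC, then A, any base, and GCGC again), searched on both strands, lay in the windows of 7 members (21.9%), against 6.38% of 21263 windows of protein-coding genes and 26.7% of 30 genes of complexes III to V. A match is a description of letters and not a site shown to be bound. The matches of the 6 tested members are printed with 10 bases on either side, 5′ to 3′ on the strand of the gene, with the match in capitals. The search itself fixes every letter but the free base, so the likeness of the capitals across members is no result. In Ndufa6, Ndufa8 and Ndufs6 the motif reads on the opposite strand, and in Ndufa11 on both.
Ndufa11, chr17:56717692-56717721, plus strand: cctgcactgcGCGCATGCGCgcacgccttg
Ndufa5, chr6:24527697-24527726, minus strand: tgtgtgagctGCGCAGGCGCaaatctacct
Ndufa6, chr15:82354249-82354278, minus strand: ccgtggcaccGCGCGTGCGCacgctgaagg
Ndufa8, chr2:36049349-36049378, minus strand: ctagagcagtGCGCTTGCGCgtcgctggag
Ndufb4, chr16:37654371-37654400, minus strand: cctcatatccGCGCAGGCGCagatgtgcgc
Ndufb4, chr16:37654428-37654457, minus strand: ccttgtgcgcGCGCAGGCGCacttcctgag
Ndufb4, chr16:37654540-37654569, minus strand: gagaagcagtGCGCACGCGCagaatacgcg
Ndufs6, chr13:73328479-73328508, minus strand: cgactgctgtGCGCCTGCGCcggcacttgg

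Ndufb4 held 3 matches and the others 1 each, and in Ndufa6 the match lay after the start. Ndufs5, listed at 0, held the remaining match. The YY1 letters AANATGGCG lay in the windows of 7 members (21.9%) against 3.12% of all windows and 10.0% of the 30 genes of complexes III to V. These letters contain the start codon ATG, and 5 of the 7 matches lay after the start. Shares of other motifs were close to those of all windows or below them: 12.5% against 11.6% for the ETS letters CCGGAAG, 31.2% against 38.2% for CCAAT, 43.8% against 46.2% for GGGCGG, and 12.5% against 12.6% for TATAAA. In the genes of complexes III to V the shares of these motifs were 33.3%, 53.3%, 33.3% and 3.33%, in that order. The letters AAGGTCA of the oestrogen-related receptors lay in 3 members (9.38%), which were Ndufb2, Ndufb4 and Ndufs5, against 4.08% of all windows. Their share in the genes of complexes III to V was 13.3%.

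For contrast, the 100 bases nearest to the start that overlap no annotated exon are printed for Ndufb10, which fell under both scalings described below, and for Ndufb6, which was called under neither. Capitals mark a match to GGGCGG on the opposite strand.
Ndufb10, chr17:24724479-24724578, minus strand: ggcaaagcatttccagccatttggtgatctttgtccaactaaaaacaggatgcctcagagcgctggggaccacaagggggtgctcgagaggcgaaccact
Ndufb6, chr4:40279422-40279521, minus strand: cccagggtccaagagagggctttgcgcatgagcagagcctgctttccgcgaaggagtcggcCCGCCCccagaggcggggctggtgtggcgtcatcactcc

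The Ndufb10 stretch held none of the 7 motifs searched, and the Ndufb6 stretch held the 1 match shown. Of the 6 tested members with NRF1 letters, 4 fell in CAPZ_KO (Ndufa5, Ndufa6, Ndufb4 and Ndufs6) and 2 were not called (Ndufa8 and Ndufa11). None of the 6 was called with library sizes alone. The difference between members with and without these letters was not tested.

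A WT library held 12060350 to 18916315 counts and a CAPZ_KO library 13122355 to 16984971, of which members took 44229 to 64995. Capzb stood at 120.2 ± 13.4 CPM (read counts relative to the library total scaled by TMM, SD, n = 4) in WT and at 72.5 ± 6.80 in CAPZ_KO, a log2 fold change of −0.73 ± 0.125 (SE; adjusted p = 0.00134, edgeR quasi-likelihood test with Benjamini-Hochberg adjustment). With library sizes alone its log2 fold change was −0.10 (adjusted p = 0.442 by edgeR). TMM, which sets the bulk of genes to no change, gave factors of 0.774 to 0.847 in WT and of 1.18 to 1.33 in CAPZ_KO. Alb, the gene of serum albumin, took 11.8% ± 2.14 of the counts in WT and 4.28% ± 0.668 in CAPZ_KO (SD, n = 4). The choice between the scalings moved the median log2 fold change of all 12985 tested genes by 0.63, from −0.003 with TMM to 0.62 with library sizes alone. Counts of calls are therefore given under both.

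One library stood apart. WT 1, the shallowest, was the highest of the 4 WT libraries in 35 of 36 members, Ndufs1 being the exception. Its members lay at a median log2 ratio of 0.59 above the other WT libraries, while the median of all tested genes was −0.03. Genes with at most 1000 bases of exon were also high in WT 1 (median 0.42 over 536 genes), and those over 4000 bases were low (−0.22). Among members, the 18 of at most 977 bases lay at 0.68 and the 18 longer ones at 0.50. The part of transcript length in the comparisons was not tested, and counts are given with and without this library.

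With TMM, nuclear subunits of complex I fell together. Of the 36 tested members, 30 fell (83.3%) and 0 rose in CAPZ_KO, where 19.0% of all tested genes fell and 22.4% rose (edgeR, adjusted p under 0.05). At an unadjusted p under 0.05 in edgeR, 0 rose as well, and DESeq2 and limma-voom also called 0 higher. The members' median log2 fold change was −0.71, and 35 of 36 were negative. In 31 members all CAPZ_KO libraries lay below all WT libraries, as in 18.2% of all genes, and in 0 members they lay above, as in 22.1% of all genes. Those that were not called were Ndufa2, Ndufa7, Ndufa8, Ndufa11, Ndufb6 and Ndufa4l2. In bulk tissue, fewer cells of a type and less RNA per cell cannot be told apart.

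With library sizes alone far fewer members were called. In that fit 4 members fell (Ndufb5, Ndufb9, Ndufb10 and Ndufb11, all of the distal membrane arm), 1 rose (Ndufa4l2) and 31 were not called. Of all tested genes, 5.39% fell and 59.0% rose in the same fit. The groups stood apart with CAPZ_KO below in 4 members, against 4.30% of all genes, and above in 1 member, against 54.2%. The members' median was −0.08 against 0.62 for all genes. Relative to the median of all genes, the members lay at −0.71 with TMM and at −0.70 with library sizes, and the same count of 35 of 36 lay below that median under each scaling. The change of scaling shifts all genes by nearly the same amount, so this agreement was fixed in advance and is no separate result. What moved was the zero line.

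**Figure D1:**
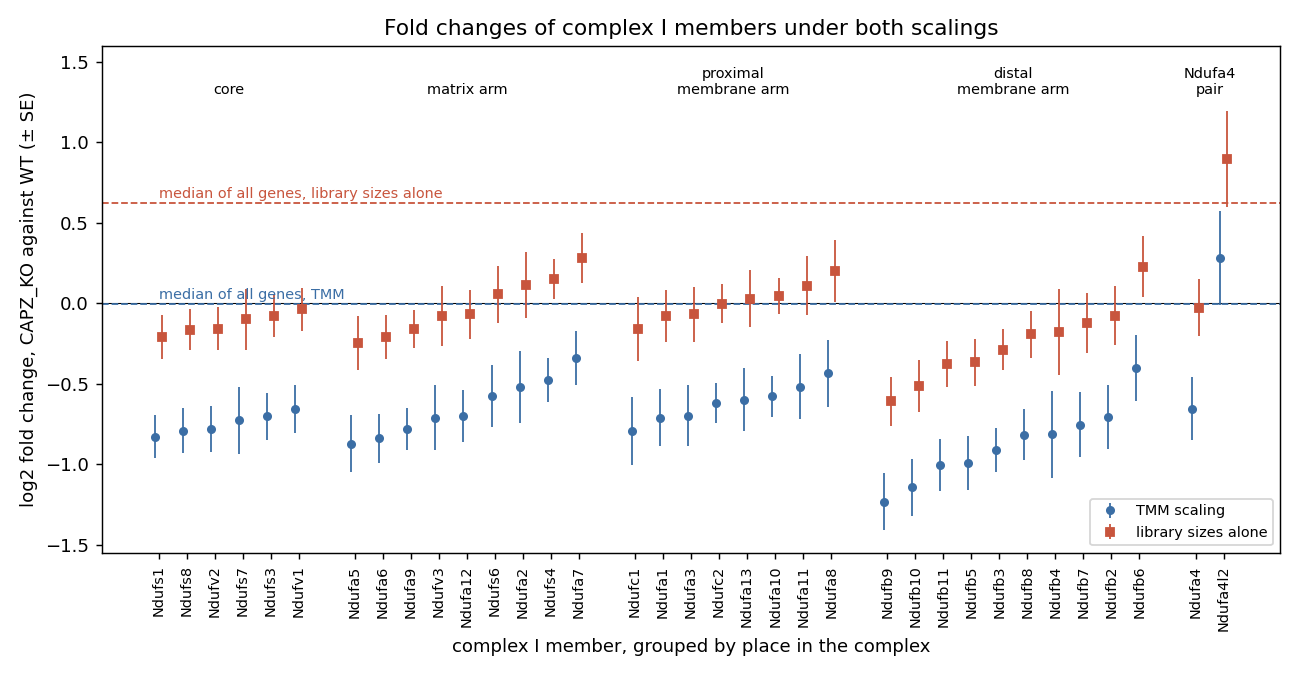
Log2 fold change of CAPZ_KO against WT (± SE) for 35 of the 36 tested members, grouped by place in the complex, with TMM (circles) and with library sizes alone (squares); dashed lines are the medians of all tested genes. Circles lie around −0.71 and squares around −0.08, each set about the same distance below its own dashed line, and Ndufb9 is the lowest under both.

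Without WT 1, 29 members fell with TMM, at a median of −0.52. The median of all 13236 genes tested in that fit was 0.006. The share of all genes that fell was slightly above the 19.0% seen with all libraries. The share that rose was slightly below the 22.4% seen with all libraries. The count of members whose groups did not overlap was again 31. Groups of fewer libraries overlap less easily, however. The share of all genes without overlap was not computed without WT 1, so the equal count does not show an equal separation. Ndufb4 was no longer called (−0.50, adjusted p = 0.0587 by edgeR). Among the other called members, 4 had log2 fold changes over 1.5 times smaller without WT 1, though still called: Ndufs6 at −0.35, Ndufa13 at −0.37, Ndufa4 at −0.43 and Ndufv3 at −0.46. The 6 members that were not called with all libraries were not called without WT 1 either, and their values moved by over 1.5 times too. Ndufa11 was then at −0.29, Ndufa2 at −0.23, Ndufa7 at −0.20, Ndufa8 at −0.17 and Ndufb6 at −0.14, all nearer to 0, and Ndufa4l2 at 0.47, farther from it. Leaving out each library in turn, 26 members fell in all 8 fits. The share of all genes that fell in all 8 was not computed, so the 26 cannot be read against it. The remaining calls, of Ndufs6, Ndufb4, Ndufa4 and Ndufa13, were each lost without 1 or more libraries. Ndufs6 was lost without WT 3 or any single CAPZ_KO library, Ndufb4 without WT 1, CAPZ_KO 1 or CAPZ_KO 4, and Ndufa4 and Ndufa13 without CAPZ_KO 1 or CAPZ_KO 3. Ndufa11 was called lower without WT 2 or WT 4.

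Counts of all members were also summed. They made up 0.471%, 0.311%, 0.341% and 0.357% of the counts in WT 1 to 4 and 0.331%, 0.354%, 0.337% and 0.348% in CAPZ_KO 1 to 4. As a share of all counts the groups overlapped, and apart from WT 1 the 7 libraries lay close together (WT mean without it 0.336% ± 0.0232, SD, n = 3, against 0.343% ± 0.0103 in CAPZ_KO, n = 4). On the TMM scale the sums were 6087, 3871, 4281 and 4214 CPM in WT and 2497, 2997, 2675 and 2902 CPM in CAPZ_KO. There every CAPZ_KO library was below every WT library, with and without WT 1.

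**Figure D2:**
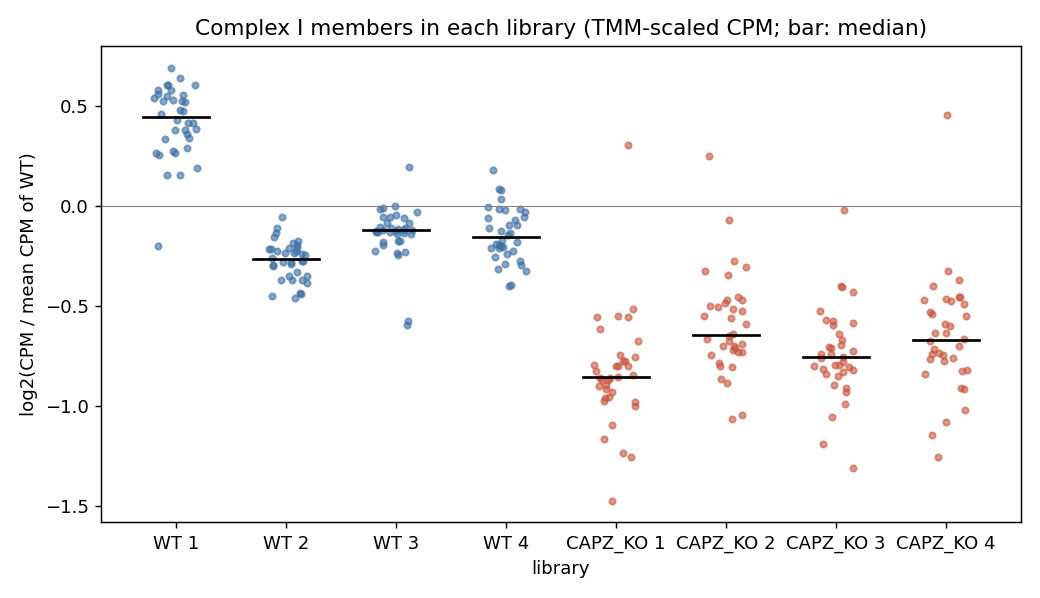
Level of each tested member in each library as log2 of its TMM-scaled CPM over the mean of WT; points are members and bars are library medians. WT 1 stands above the other WT libraries for 35 of 36 members, and the median of each CAPZ_KO library lies below that of each WT library, with Ndufa4l2 as the highest CAPZ_KO point.

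All 6 core subunits described here fell with TMM. Their log2 fold changes lay in a narrow band, from −0.83 to −0.66. With library sizes alone none of the 6 was called, with values from −0.21 to −0.04. Ndufs1, the large subunit that holds several iron-sulphur clusters (chr1:63143596-63176833, minus strand, GRCm38), stood at 130.8, 139.4, 172.3 and 158.8 CPM in WT and at 75.2, 81.3, 85.1 and 96.7 in CAPZ_KO. The groups did not overlap, and WT 1 was here the lowest of WT. Its log2 fold change was −0.83 ± 0.134 (SE; adjusted p = 0.000919, edgeR), and −0.21 with library sizes (adjusted p = 0.192).

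Ndufs7, which carries the last iron-sulphur cluster before ubiquinone (chr10:80249121-80256794, plus strand), stood at 131.5, 65.7, 81.4 and 77.8 CPM in WT and at 45.9, 55.8, 51.9 and 61.3 in CAPZ_KO. WT 1 was far above the rest, and the remaining gap between the groups was small (−0.73 ± 0.206, adjusted p = 0.0173 by edgeR).

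Ndufv1, the subunit that binds NADH and holds the flavin (chr19:4007384-4012806, minus strand), stood at 233.6, 165.4, 187.1 and 191.8 CPM in WT and at 107.3, 132.8, 111.9 and 140.3 in CAPZ_KO. Again the groups did not overlap (−0.66 ± 0.149, adjusted p = 0.00563 by edgeR), and this was the smallest change of the core. Ndufv2, its iron-sulphur partner (chr17:66078638-66101559, minus strand), stood at 213.4, 144.4, 155.0 and 162.4 CPM in WT and at 93.1, 103.9, 94.3 and 100.7 in CAPZ_KO. The CAPZ_KO libraries were close to each other and all under WT (−0.78 ± 0.142, adjusted p = 0.00182 by edgeR).

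Ndufs8, which carries the iron-sulphur clusters between Ndufs1 and Ndufs7 (chr19:3908863-3912774, minus strand), read 133.1, 92.3, 99.6 and 96.8 CPM in WT and 54.2, 62.9, 63.1 and 63.3 in CAPZ_KO. CAPZ_KO 1 was low within its group, and no library crossed over (−0.79 ± 0.140, adjusted p = 0.00159 by edgeR). Ndufs3, a core subunit without a redox centre (chr2:90894634-90904827, minus strand), read 121.9, 88.7, 92.8 and 99.8 CPM in WT and 51.4, 67.0, 59.6 and 69.9 in CAPZ_KO. Here too the groups stood apart (−0.70 ± 0.145, adjusted p = 0.00365 by edgeR).

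Of the 9 accessory subunits of the matrix arm, 7 fell with TMM and Ndufa2 and Ndufa7 were not called. Their median log2 fold change was −0.70, and −0.07 with library sizes, where none was called. Ndufa9, which sits beside the ubiquinone site (chr6:126821721-126849136, minus strand), stood at 189.2, 140.2, 149.1 and 154.9 CPM in WT and at 83.2, 97.3, 90.9 and 96.6 in CAPZ_KO. All CAPZ_KO libraries were under 100 CPM and all WT libraries above it (−0.78 ± 0.130, adjusted p = 0.00106 by edgeR).

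Ndufa6, a small protein that binds the acyl carrier protein (chr15:82350140-82354322, minus strand), stood at 235.1, 150.8, 181.4 and 165.8 CPM in WT and at 98.0, 110.5, 97.5 and 103.8 in CAPZ_KO. The groups did not overlap (−0.84 ± 0.152, adjusted p = 0.00178 by edgeR). Ndufa5 (chr6:24518666-24528013, minus strand) stood at 88.6, 47.6, 59.2 and 61.7 CPM in WT and at 32.6, 37.3, 36.1 and 34.2 in CAPZ_KO. Its CAPZ_KO values differed little from each other while WT 1 was high (−0.87 ± 0.177, adjusted p = 0.00327 by edgeR).

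Ndufv3 (−0.71), Ndufa12 (−0.70), Ndufs6 (−0.58) and Ndufs4 (−0.48) completed the calls of the matrix arm, with adjusted p from 0.00666 to 0.0352 by edgeR. Ndufs4 is the subunit whose loss in mice is used as a model of Leigh syndrome. Ndufa7 (chr17:33824572-33838317, plus strand) stood at 159.5, 105.2, 103.1 and 120.8 CPM in WT and at 85.3, 116.4, 90.7 and 92.7 in CAPZ_KO. Its groups overlapped through CAPZ_KO 2 (−0.34 ± 0.168, adjusted p = 0.126 by edgeR). The value for Ndufa2 was −0.52 (adjusted p = 0.0859 by edgeR).

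In the proximal membrane arm 6 of 8 tested accessory subunits fell, and Ndufa8 and Ndufa11 were not called. The median log2 fold change was −0.61 with TMM and 0.01 with library sizes, where none was called. Ndufc2 (chr7:97400003-97407802, plus strand) stood at 100.3, 82.2, 82.4 and 95.8 CPM in WT and at 51.7, 61.1, 55.7 and 65.8 in CAPZ_KO. The groups were clear of each other (−0.62 ± 0.125, adjusted p = 0.00311 by edgeR). With library sizes its log2 fold change was −0.0014.

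Ndufa10, a subunit with the fold of a nucleoside kinase (chr1:92439010-92473860, minus strand), stood at 207.7, 175.3, 175.0 and 170.5 CPM in WT and at 104.5, 129.9, 121.5 and 132.2 in CAPZ_KO. No library crossed over (−0.58 ± 0.128, adjusted p = 0.00516 by edgeR), and the value was 0.05 with library sizes. Ndufa1, a small X-linked membrane subunit (chrX:37187588-37191163, minus strand), stood at 103.0, 63.4, 67.7 and 62.2 CPM in WT and at 44.2, 52.3, 41.1 and 43.3 in CAPZ_KO. WT 1 was again high and the groups did not overlap (−0.71 ± 0.176, adjusted p = 0.0092 by edgeR).

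Ndufc1 (−0.79), Ndufa3 (−0.70) and Ndufa13 (−0.60) also fell, with adjusted p from 0.0128 to 0.0332 by edgeR. Ndufa13 is also known as GRIM-19. Ndufa8, a protein of the intermembrane space with paired cysteine motifs, had a log2 fold change of −0.43 (adjusted p = 0.120) and Ndufa11 of −0.52 (adjusted p = 0.0627, both by edgeR). In Ndufa11 the groups nevertheless did not overlap.

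The distal membrane arm held the 5 largest falls of all members, and without WT 1 it held the 2 largest (Ndufb9 at −1.07 and Ndufb10 at −0.95), followed by Ndufs1 of the core (−0.90). There 9 of 10 accessory subunits fell, at a median log2 fold change of −0.86 with TMM and −0.24 with library sizes. Ndufb6 was not called. The difference between the distal arm and the other groups was not tested. Ndufb9, which like Ndufa6 binds an acyl carrier protein (chr15:58933756-58939488, plus strand), stood at 371.7, 233.0, 257.5 and 253.9 CPM in WT and at 100.5, 135.1, 112.4 and 126.3 in CAPZ_KO. Each CAPZ_KO library was far under the lowest WT library. The log2 fold change of −1.23 ± 0.176 (adjusted p = 0.00046, edgeR) was the largest of all members. With library sizes the values were 287.5, 187.2, 205.5 and 215.1 CPM against 133.5, 159.8, 141.8 and 151.6, still without overlap (−0.61 ± 0.153, adjusted p = 0.00562 by edgeR).

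Ndufb10, a subunit with paired cysteine motifs on the intermembrane side (chr17:24722060-24724478, minus strand), stood at 255.1, 145.2, 161.3 and 169.1 CPM in WT and at 76.5, 87.3, 80.1 and 86.4 in CAPZ_KO. The groups stood well apart (−1.14 ± 0.178, adjusted p = 0.000753 by edgeR), and also with library sizes (−0.52, adjusted p = 0.0178). Ndufb3 (chr1:58586384-58595964, plus strand) stood at 71.9, 50.4, 59.8 and 56.9 CPM in WT and at 27.9, 34.3, 31.3 and 33.4 in CAPZ_KO. It fell with TMM (−0.91 ± 0.136, adjusted p = 0.000591 by edgeR) and was not called with library sizes (−0.29, adjusted p = 0.0658).

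Ndufb11, an X-linked membrane subunit, and Ndufb5 were chosen after their values were seen, since they were called under both scalings. Ndufb11 stood at 233.5, 155.2, 174.1 and 155.7 CPM in WT and at 80.1, 102.7, 86.4 and 88.7 in CAPZ_KO, and Ndufb5 at 183.2, 118.9, 127.9 and 119.8 against 58.4, 75.6, 69.2 and 72.9. Neither overlapped between the groups. Ndufb11 had a log2 fold change of −1.005 ± 0.160 (adjusted p = 0.00085 by edgeR), and −0.38 with library sizes (adjusted p = 0.036). Ndufb5 had −0.99 ± 0.165 (adjusted p = 0.0011 by edgeR), and −0.37 (adjusted p = 0.046). Without WT 1, the calls with library sizes were Ndufb9 and Ndufb10 lower, and Ndufa2, Ndufa7, Ndufa8, Ndufa11, Ndufb6 and Ndufa4l2 higher. With all libraries, 5.39% of all tested genes fell and 59.0% rose on that scale, so such rises are not particular to these members. Ndufb9 and Ndufb10 were called in every fit that left out 1 library. Ndufb11 was called only in those without WT 2, WT 4 or CAPZ_KO 2, and Ndufb5 only in those without WT 2 or WT 4.

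The other members of the distal arm that fell with TMM were Ndufb8 (−0.82), Ndufb4 (−0.81), Ndufb7 (−0.75) and Ndufb2 (−0.71), with adjusted p from 0.00253 to 0.0343 by edgeR. Ndufb6 (chr4:40270591-40279421, minus strand) stood at 137.2, 69.7, 76.7 and 77.1 CPM in WT and at 61.5, 73.1, 68.2 and 69.7 in CAPZ_KO. Apart from WT 1 its libraries were close in both groups (−0.40 ± 0.206, adjusted p = 0.143 by edgeR).

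Ndufa4 and Ndufa4l2 carry complex I names, but Ndufa4 is now placed in cytochrome c oxidase (complex IV), and Ndufa4l2 is its paralogue, known to be induced by hypoxia. Ndufa4 (chr6:11900292-11907497, minus strand) stood at 576.5, 329.3, 349.3 and 345.9 CPM in WT and at 229.7, 283.0, 230.9 and 273.4 in CAPZ_KO. It fell with TMM (−0.65 ± 0.198, adjusted p = 0.0234 by edgeR), with WT 1 far above the rest. Ndufa4l2 (chr10:127514967-127517154, plus strand) was rare, with 23, 20, 16 and 30 counts in WT and 47, 41, 28 and 46 in CAPZ_KO. At 2.47, 1.32, 1.14 and 1.94 CPM against 2.12, 2.04, 1.69 and 2.35 its groups overlapped (0.28 ± 0.292, adjusted p = 0.471 by edgeR). With library sizes it was the only member that rose (0.90 ± 0.298, adjusted p = 0.0223 by edgeR). That call was lost without WT 2, WT 3, CAPZ_KO 1 or CAPZ_KO 4.

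Each member was then given as a share of all complex I counts of its library, a quantity that does not depend on the scaling. The shares of a library sum to a fixed whole, so a loss by some members raises the shares of others. Genes outside complex I are not under this bound. Read against the summed complex I counts in the same way, 3.07% of all tested genes had every CAPZ_KO library below WT and 55.2% had every one above. By that measure 27 members overlapped, 5 lay lower in every CAPZ_KO library (Ndufb3, Ndufb5, Ndufb9, Ndufb10 and Ndufb11) and 4 lay higher (Ndufa7, Ndufb6, Ndufs4 and Ndufa4l2). All 5 that lost share belong to the distal arm, which did not hold without WT 1. There the counts were 7 lower and 9 higher, but groups of fewer libraries overlap less easily. The share of all genes was not computed without WT 1, so the rise in these counts cannot be read. The 2 added to the lower ones, Ndufs1 and Ndufa9, are subunits of the matrix arm. The share of Ndufs1 was 2.15%, 3.60%, 4.03% and 3.77% in WT and 3.01%, 2.71%, 3.18% and 3.33% in CAPZ_KO. The share of Ndufa9 was 3.11%, 3.62%, 3.48% and 3.68% in WT and 3.33%, 3.25%, 3.40% and 3.33% in CAPZ_KO. In both genes WT 1 alone lay below the CAPZ_KO libraries.

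The share of Ndufb9 was 6.11%, 6.02%, 6.01% and 6.03% in WT and 4.02%, 4.51%, 4.20% and 4.35% in CAPZ_KO. It hardly varied between WT libraries, WT 1 included, and was lower in each CAPZ_KO library. Ndufb10 went from 3.93% ± 0.211 to 2.99% ± 0.0626 (SD, n = 4). Ndufb11 went from 3.90% ± 0.169 to 3.23% ± 0.153, and Ndufb5 from 2.98% ± 0.0967 to 2.49% ± 0.106.

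In the other direction, Ndufa7 had a share of 2.62%, 2.72%, 2.41% and 2.87% in WT and of 3.42%, 3.88%, 3.39% and 3.19% in CAPZ_KO. Every CAPZ_KO share was above the highest WT share. Ndufb6 went from 1.92% ± 0.224 to 2.46% ± 0.0625 and Ndufs4 from 2.16% ± 0.127 to 2.56% ± 0.104 (SD, n = 4). For Ndufs4, which fell on the TMM scale, the larger share means a smaller fall than that of the sum.

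**Figure D3:**
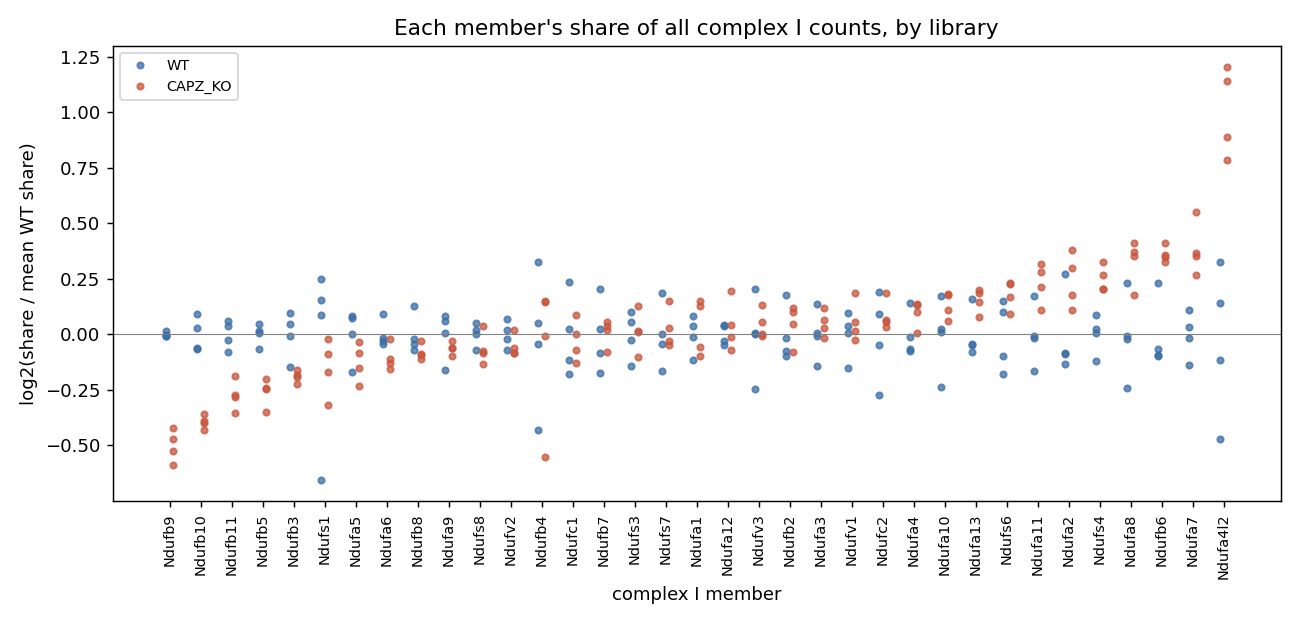
Share of each member in the summed complex I counts of a library, as log2 of the share over its WT mean; each point is a library. At the left, Ndufb9, Ndufb10, Ndufb11, Ndufb5 and Ndufb3 have all CAPZ_KO points below WT, and at the right Ndufa7, Ndufb6, Ndufs4 and Ndufa4l2 have all of them above, while the remaining members overlap; 1 member is not drawn.

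Levels were compared between members per kb of exon, from the merged exons of the GENCODE vM21 basic set. Ndufa4 was the most abundant, at 641.4 ± 188.8 CPM per kb in WT and 407.4 ± 44.8 in CAPZ_KO (SD, n = 4). It was followed in WT by Ndufb9 (396.3 ± 89.1), Ndufa6 (269.9 ± 54.1), Ndufb10 (249.6 ± 67.4) and Ndufa7 (231.4 ± 49.4). Both steps from Ndufa4 to Ndufb9 and from Ndufb9 to Ndufa6 were larger than the SD of either gene. From Ndufa6 down to Ndufa12 each step to the next gene was smaller than the larger SD of the pair. At the low end stood Ndufb2 (16.3 ± 5.16), Ndufb4 (13.6 ± 5.71) and Ndufa4l2 (1.84 ± 0.65), against 9.99 ± 1.00, 7.68 ± 1.36 and 2.20 ± 0.29 in CAPZ_KO. The place of Ndufb2 rests on its merged exons, at 4375 bases the longest of the members. Before division by length its WT mean was 71.4 CPM, close to the 72.6 of Ndufa11.

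The order of levels was nearly the same in both groups: Spearman's rho across the 36 members was 0.98, a description over genes that share libraries and lengths. In CAPZ_KO, Ndufa7 (182.3 ± 26.1 CPM per kb) ranked above Ndufb9 (168.4 ± 21.7), with a difference inside the SD. Across members the log2 fold change and exon length had a Spearman's rho of −0.129, also a description. Exons of at most 1000 bases were found in 19 of the 36 members. Over all 536 tested genes this short the median log2 fold change with TMM was −0.28, and 27.4% of them fell, against 19.0% of all tested genes. In 14 members, exon sequence is shared with a gene read from the other strand, among them Ndufb11 with Rbm10, Ndufb5 with Mrpl47, Ndufb6 with Smim27, and Ndufs1 with Eef1b2. The strand setting of the counting is not given in the sources used here, so reads of such pairs may not have been told apart. Ndufb9, Ndufb8 and Ndufb2 also share exon sequence with a gene model on the same strand.

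**Figure D4:**
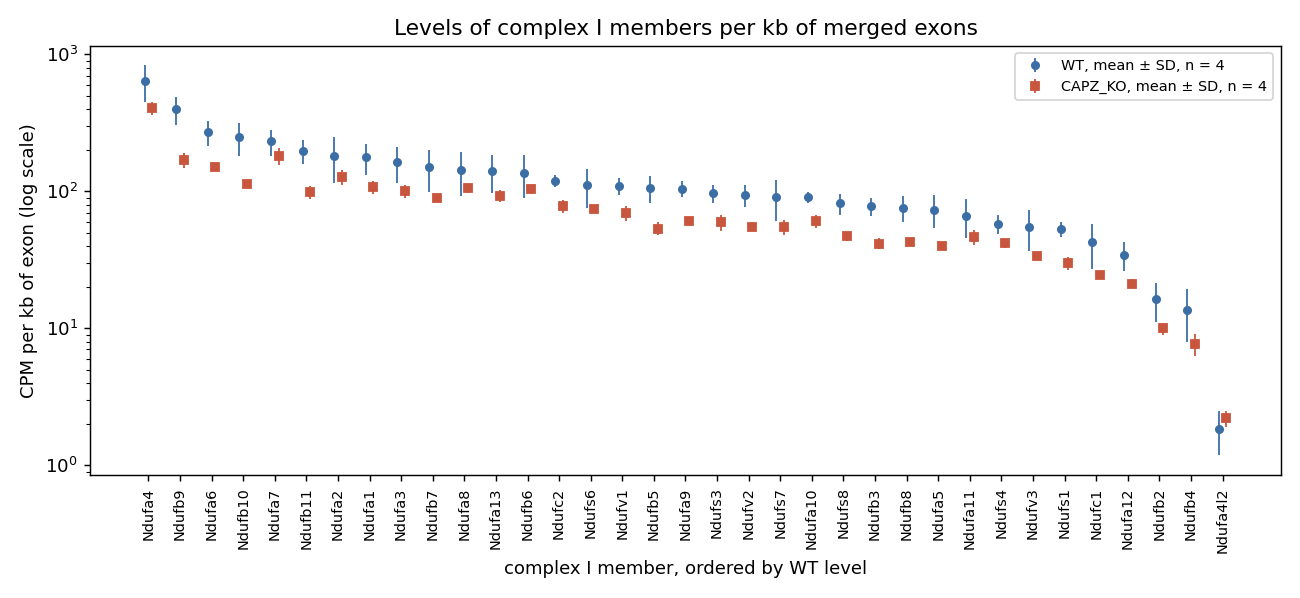
Mean level of 35 of the 36 tested members in CPM per kb of merged exons (± SD, n = 4, log axis), ordered by WT. Ndufa4 is highest and Ndufa4l2 lowest in both groups, and CAPZ_KO squares lie below WT circles for all members but Ndufa4l2.

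The rest of the respiratory chain was read the same way. Beside the lists that follow, 19.0% of all tested genes fell and 22.4% rose with TMM. With library sizes alone, 5.39% fell and 59.0% rose. Of 37 tested nuclear genes of complexes III to V, 32 fell and 0 rose with TMM (edgeR), at a median of −0.75, close to the −0.71 of complex I. Atp5j (−0.90), Atp5a1 (−0.84) and Atp5f1 (−0.82) of ATP synthase and Uqcrb (−0.96) of complex III had the smallest p. With library sizes alone 0 fell and 1 rose, Cox7a2l at 0.51 (adjusted p = 0.00508 by edgeR), a factor that joins complexes III and IV. Ndufab1 fell with TMM (−0.71, adjusted p = 0.0144 by edgeR), the same value as the median of the members.

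Enzymes that pass electrons to ubiquinone without complex I fell in 10 of 13 cases, at a median of −0.99. Prodh2, which oxidises hydroxyproline, was at −2.30, Etfa, of the electron transfer flavoprotein, at −1.12, Gpd2, the mitochondrial glycerol-3-phosphate dehydrogenase, at −1.09, and Sdha, of complex II, at −0.91. With library sizes 5 of the 13 fell (Prodh2, Gpd2, Etfa, Etfdh and Etfb) and 1 rose (Chdh, choline dehydrogenase, 0.41). Of 17 genes of the citric acid cycle and pyruvate oxidation, pathways that supply NADH, 10 fell and 0 rose at a median of −0.61. The smallest p were those of Fh1, fumarate hydratase (−1.11), Pdhb, of pyruvate dehydrogenase (−0.95), Sucla2, of succinyl-CoA synthetase (−0.84), and Idh3b, of isocitrate dehydrogenase (−0.84). Of these 4, Fh1 and Sucla2 do not make NADH themselves. With library sizes Fh1 alone fell and 4 rose (Dlst, Idh3g, Ogdh and Mdh2).

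Assembly factors build complex I but are not part of it. With TMM 9 of 18 fell and 0 rose, at a median of −0.45. Ndufaf6 went from 21.3 ± 3.51 to 8.54 ± 0.832 CPM (SD, n = 4; −1.31 ± 0.156, adjusted p = 0.000172 by edgeR), and Ndufaf4 from 48.9 ± 4.06 to 24.0 ± 4.90 (−1.03 ± 0.156, adjusted p = 0.000657). Atp5sl, also called DMAC2, was at −1.26 and Ndufaf1 at −0.73. Ndufaf6, Ndufaf4 and Atp5sl also fell with library sizes. In that fit Acad9, Ndufaf7 and Nubpl rose, all 3 of which lay between −0.05 and 0.05 with TMM and were not called.

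Among 15 regulators of mitochondrial gene expression 9 fell and 0 rose, at a median of −0.54. Tfam, which packages and transcribes mitochondrial DNA, was at −0.81, Tfb2m at −0.89, Gabpa, an ETS factor, at −0.83, and Polg, the mitochondrial DNA polymerase, at −0.48. Nrf1, whose motif is printed above, was at −0.14 (adjusted p = 0.535 by edgeR) and was called higher with library sizes (0.49, adjusted p = 0.0345). That 0.49 lay below the median of all genes in the same fit, 0.62. Yy1 fell with TMM (−0.54) and was not called with library sizes. Esrrg fell under both (−2.87 with TMM), with WT 4 far above the other WT libraries. With library sizes it was the only regulator that fell, and 4 rose (Nrf1, Polrmt, Gabpb1 and Hcfc1), where 59.0% of all tested genes rose.

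Genes of the outer membrane, protein import and cristae fell in 8 of 16 cases with TMM, and 0 rose, at a median of −0.29. Hspd1, the mitochondrial chaperonin, was at −0.92, Tomm70a, an import receptor, at −0.76, Chchd3 at −0.67 and Opa1, the fusion GTPase of the inner membrane, at −0.66. Of 9 genes of supercomplexes and mitochondrial turnover, 4 fell (Bnip3 at −1.51, Pink1 at −0.68, Clpp at −0.63 and Bnip3l at −0.53) and 0 rose. With library sizes, 8 of the 16 genes and 1 of the 9 (Cox7a2l) rose and 0 fell, where 59.0% of all tested genes rose.

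**Figure D5:**
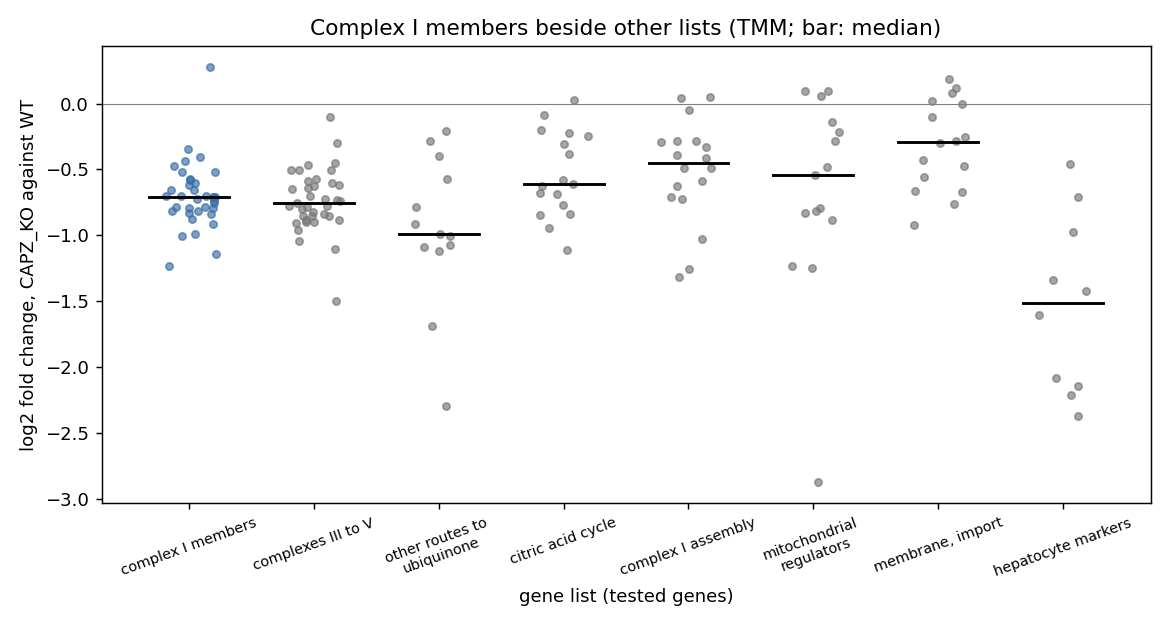
Log2 fold change with TMM for the tested members of complex I and of other lists; points are genes and bars are medians. The medians of complex I (−0.71) and of complexes III to V (−0.75) lie at a similar height, those of assembly factors (−0.45) and of membrane and import genes (−0.29) are nearer to 0, and hepatocyte markers (−1.51) are lowest.

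Markers of liver cell types moved with the same comparison, and their part in the change of complex I was not tested. Of 10 hepatocyte markers 9 fell and 0 rose with TMM, at a median of −1.51, and their summed level was 174446 to 222735 CPM in WT and 43140 to 65148 in CAPZ_KO. Hnf4a, a transcription factor that defines hepatocytes, stood at −0.71 (adjusted p = 0.0118 by edgeR), level with the members' median, and at −0.09 with library sizes. Apoa1 was not called. Cholangiocyte markers rose in 5 of 8 cases, with a sum of 43.0 to 80.0 CPM in WT and 369.6 to 1090 in CAPZ_KO.

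Markers of monocyte-derived macrophages rose in 7 of 8 cases (39.8 to 63.7 CPM against 224.0 to 280.4), and those of stellate cells in 7 of 8 (108.1 to 174.3 against 408.2 to 955.5). Kupffer cell markers rose in 2 of 6, endothelial markers in 2 of 6, neutrophil markers in 1 of 4, and T, NK and B cell markers in 0 of 7, all with TMM. The shares of the Kupffer cell, endothelial and neutrophil lists (33.3%, 33.3% and 25%), each of few genes, lay near the 22.4% of all tested genes that rose. No marker of these 6 lists, or of cholangiocytes, fell. Of 7 erythroid and platelet markers 4, all globin genes (Hba-a1, Hba-a2, Hbb-bs and Hbb-bt), were listed at 0 in all libraries, and of the 3 tested Alas2 fell, Pf4 rose and Ppbp was not called.

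With library sizes alone, where 59.0% of all tested genes rose, more markers of non-parenchymal cells were called higher. Kupffer cell markers then rose in 5 of 6 cases, endothelial markers in 4 of 6, neutrophil markers in 4 of 4, and cholangiocyte markers in 6 of 8. Those of monocyte-derived macrophages and of stellate cells rose in 8 of 8 each, and T, NK and B cell markers again in 0 of 7. No marker of these lists fell. Of the hepatocyte markers 8 of 10 fell and 0 rose, and of the erythroid and platelet markers 2 rose and 1 fell.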

How the data were processed

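The file the authors deposited holds unscaled read counts by symbol and library. The submitters' processing notes name mm10 and, without saying which did what, edgeR, featureCounts, STAR 2.5.3a, bcl2fastq and R 3.3.1. Annotation version, use of strand in counting and treatment of multi-gene reads: not given in the sources used here. Per the labels' protocols, RNA came from perfused livers and the kit keeps strand.

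Genes were kept by filterByExpr of edgeR 4.0.16 (minimum count 10, minimum total 15), which left 12985; 6905 symbols had no count. The quasi-likelihood test of edgeR (robust dispersion, R 4.3.3, limma 3.58.1) was run once with TMM and once with library sizes alone, with Benjamini-Hochberg adjustment over all tested genes and a threshold of 0.05. The SE is the log2 fold change over the root of F. The common biological coefficient of variation was 24.9%. Fold changes are CAPZ_KO against WT on the log2 scale. The test was checked on simulated counts.

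The members and gene lists were chosen with earlier results of these data known, so no list was tested as a set. One member, counted in the totals, is not reported here. Values in full were given for the other core subunits, the Ndufa4 pair, the 3 members of smallest p of each accessory group, the largest and smallest fold changes, and up to 4 genes of smallest p of each other list. Positions, exons and lengths come from GENCODE vM21 on GRCm38, in which 95.7% of the symbols were found. Promoter sequences are RefSeq's. No libraries were duplicates (chi-square per degree of freedom 25.2 to 144.5). WT 4 and CAPZ_KO 4 expressed Xist and no Y-linked gene. Results were recomputed with DESeq2 1.42.0 and with further scalings, filters and tests, a threshold of 0.01, a replicate block, and each library left out. After the data had been seen, sex as a term and a fit without both female libraries were added.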

Additional observations from a re-analysis of the deposited data

Results flagged for a closer look

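Within groups of 4, a library was marked where its gap to the nearest other, divided by the range of the group, passed Dixon's critical value at the 95% level. Chance marks about 1 in 20 groups.

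WT 1 was marked as the highest WT library in 11 of the 36 tested members: Ndufa4 at a ratio of 0.919, Ndufa12 at 0.907, Ndufa2 at 0.897, Ndufb6 at 0.889, Ndufa10 at 0.871, Ndufa1 at 0.864, Ndufb5 at 0.860, Ndufa13 at 0.847, Ndufb2 at 0.847, Ndufa11 at 0.839 and Ndufa3 at 0.832. CAPZ_KO 2 was marked as the highest CAPZ_KO library in Ndufc1 (0.882) and Ndufa2 (0.872). CAPZ_KO 1 was marked as the lowest in Ndufs8 (0.947). The members share libraries, so these marks are not independent of each other.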

How the results depend on the processing

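With TMM, 30 members fell. Leaving out 1 library at a time gave 26 to 31 lower, with medians from −0.80 to −0.52, with all genes called lower at 2100 to 2658 and all genes called higher at 2371 to 2964. A threshold of 0.01 left 19 members lower (all genes called lower 1439, all genes called higher 1864).

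Scaling moved the counts most. Library sizes alone gave 4 members lower and 1 higher, a median of −0.0804, all genes called lower at 700 and all genes called higher at 7665. Library sizes without the 50 largest genes gave 13 lower, a median of −0.30, and 1042 and 5642 of these. In the first, signs turned in 9 members: Ndufa10 0.0455, Ndufs6 0.0562, Ndufs4 0.15, Ndufa7 0.28, Ndufa11 0.11, Ndufa2 0.11, Ndufa8 0.20, Ndufb6 0.23 and Ndufa13 0.0284. In the second, they turned in Ndufa7 (0.0688) and Ndufb6 (0.0137). None of these 11 values was called. Upper-quartile scaling gave 27 lower, DESeq2 size factors 30, the DESeq2 test 31 and limma-voom 30. In the same order, all genes called lower were 2034, 2591, 2847 and 2437, and all genes called higher 3291, 2835, 3023 and 2919. Relative to the median of all genes, the members' median was −0.80 to −0.53 over these settings.

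With library sizes alone, a threshold of 0.01 left 1 lower (Ndufb9) and 0 higher. Leaving out both female libraries gave 2 lower, and Ndufa4l2 higher. At a threshold of 0.05 with all libraries, 5.39% of all tested genes fell and 59.0% rose. Leaving out 1 library gave 2 to 5 lower, 0 to 6 higher and medians from −0.16 to 0.0888, positive without WT 1. The cause was not tested.

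Replicate numbers are shared by the groups, but same-numbered libraries deviated together by over 0.1 in 2 of 4 pairs (r = 0.245, 0.0251, 0.0847 and 0.301), so they were not taken as paired; both number 4 libraries were also female. Of the 4 numbers, 3 correlated best with their own. The replicate block gave 29 members lower at a median of −0.68 (all genes called lower 2411, all genes called higher 2974). With library sizes it gave 2 lower, and Ndufa4l2 higher.

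The lowest-count member, Ndufa4l2, had 16 to 47 counts, which limits its precision.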
